A study of Homo sapiens with 8 samples.

Results

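The 9 genes described here encode proteins used to sort or recognise ovarian cancer stem cells, and were followed in 2 ovarian carcinoma cell lines. They are 3 aldehyde dehydrogenases of the ALDH1A group (ALDH1A1, ALDH1A2 and ALDH1A3) and 6 cell surface proteins (PROM1, which encodes CD133, CD44, CD24, KIT, which encodes CD117, CD9 and L1CAM). They are a fixed list taken by name, set with earlier results of these data known, and all 9 of them are among the 20339 genes in the count table. RNA was sequenced in 8 libraries, 1 per condition, from 4 cell populations. OVCAR3-CTR is the control population of the OVCAR3 line, and OVCAR3-MGPKO is the same line after CRISPR-Cas9 ablation of MGP (matrix Gla protein), from which clones were isolated. COV318-CTR is the COV318 line with the empty lentiviral vector, and COV318-MGP is that line with the vector carrying the MGP cDNA, both after puromycin selection. Each population was sequenced as adherent cells ("bulk") and as spheres enriched in ovarian cancer stem cells ("OCSC"), at passage 4 for OVCAR3 and passage 18 for COV318. Bulk cells grew in serum and spheres in serum-free medium with growth factors on non-adherent plastic, so attachment, medium and selection for sphere-forming cells cannot be told apart in any comparison of OCSC with bulk.

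ALDH1A enzymes oxidise retinal to retinoic acid and also clear reactive aldehydes, and the fluorescent ALDH assay used to sort stem-like tumour cells reads their activity. CD133 is a glycoprotein of plasma membrane protrusions, CD44 is the main receptor for hyaluronan, CD24 is a small mucin-like GPI-anchored protein, KIT is the tyrosine kinase receptor for stem cell factor, CD9 is a tetraspanin that organises other membrane proteins, and L1CAM is an adhesion molecule of the immunoglobulin superfamily. In ovarian carcinoma, combinations of these markers are used because no single one of them defines the tumour-initiating cells.

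The total count on genes ranged from 12294591 to 37393919 per library, and levels are given below as normalized counts, that is, counts divided by the library's median-of-ratios size factor. A count of 3 or fewer was treated as the floor, which is 0.0802 to 0.244 CPM (counts of 1 gene scaled to a common library total) in these libraries. The MGP count was 40393 and 28694 in the COV318-MGP libraries and 0 or 1 in the COV318-CTR libraries. It was 0 to 2 in all 4 OVCAR3 libraries, controls included, so the MGP count gives no check of the knockout label. All 13 of 13 ovarian carcinoma epithelium markers were above the floor in each OVCAR3 and COV318-CTR library. In each COV318-MGP library 6 of 13 were, and PAX8, KRT7, SOX17 and CLDN3 had a count of 0. KRT8 and KRT18 went the other way in OCSC, at 1407.2 and 6885.7 normalized counts against 158 and 3560.6 in COV318-CTR OCSC. The summed normalized count of the 13 markers was 2017 and 8505 in COV318-MGP bulk and OCSC, against 17748.2 to 286087.9 in the other 6 libraries. Across genes, the COV318-MGP libraries had r = 0.747 to 0.757 with the COV318-CTR libraries, whereas COV318-CTR and OVCAR3 libraries reached 0.798 to 0.806. The COV318-MGP libraries thus stand apart from the line they are labelled with, and fits that use them for the culture comparisons are also given without them.

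Promoter sequence is shown for ALDH1A1 and KIT, the enzyme and the surface protein with the largest difference between spheres and adherent cells in OVCAR3-CTR. Both stretches come from the RefSeq promoter table of GRCh38.p14 and lie upstream of the RefSeq start, with each CG dinucleotide in capitals. They leave out the 3 bases (ALDH1A1) and 68 bases (KIT) next to the start, which fall in an annotated untranslated region. They hold no annotated untranslated region of the gene in GENCODE 44, and other exons were not checked. The annotated span of both genes begins further upstream and includes the stretches. The ALDH1A1 stretch is chr9:72953057-72953303 on the minus strand, and the KIT stretch is chr4:54657707-54657888 on the plus strand.
ALDH1A1: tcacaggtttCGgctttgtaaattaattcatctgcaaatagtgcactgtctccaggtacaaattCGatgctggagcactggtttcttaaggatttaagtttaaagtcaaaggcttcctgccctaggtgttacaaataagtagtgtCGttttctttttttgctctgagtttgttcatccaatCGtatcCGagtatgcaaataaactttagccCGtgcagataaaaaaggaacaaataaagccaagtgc
KIT: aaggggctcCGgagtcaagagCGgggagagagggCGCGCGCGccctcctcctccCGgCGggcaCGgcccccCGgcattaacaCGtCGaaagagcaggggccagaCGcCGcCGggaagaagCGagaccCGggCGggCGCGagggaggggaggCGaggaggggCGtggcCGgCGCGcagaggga
The 247 printed bases of ALDH1A1 held 6 CG dinucleotides at a GC content of 38.5%, and the 182 printed bases of KIT held 25 at 75.8%. Over the 300-base windows (250 bases before to 50 after the start), the GC content of the ALDH1A1 window was 40.3%, the 11.8th percentile of 35116 windows, and that of the KIT window was 74.3%, the 89th percentile. All 250 upstream bases of the CD44 window and of 1 of the 4 PROM1 windows fall in an annotated untranslated region and are not shown. Of 8 motifs searched on both strands in the 19 windows of the 9 genes, 5 were in none of them. These were the TATA box TATAAA (held by 11.5% of all windows), the GLI motif GACCACCCA (0.236%), the E-box CACGTG (7.26%), the cAMP response element TGACGTCA (1.85%) and the GATA motif AGATAAG (2.68%). CCAAT was in 6 windows and GGGCGG in 12, against 34.6% and 45% of all windows, and the AP-1 motif TGACTCA was in 1 PROM1 window, against 4.95% of all. The ALDH1A1 CCAAT lies 74 bases before the start, within the stretch printed above.

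In the spheres of both OVCAR3 populations, ALDH1A1, PROM1, CD44 and KIT were higher than in adherent cells and L1CAM was lower. A gene was called here when log2(normalized count + 1) differed by at least 1 between the libraries of a pair (log2FC) and at least 1 of them held 10 counts. By this rule 5 of the 9 genes were higher and 2 lower in OVCAR3-CTR OCSC, where 13.9% of the 15510 genes tested were higher and 11.4% lower. In OVCAR3-MGPKO OCSC, 4 of 9 were higher and 1 lower, against 7.77% and 8.96% of all genes. The 4 genes higher in both OVCAR3 populations compare with 4.18% of all genes, and the 1 lower in both with 3.57%. In COV318-CTR OCSC, 2 of the 6 genes with enough counts were higher (ALDH1A1 and CD24) and 0 lower, against 9.4% and 9.76% of all genes. In COV318-MGP OCSC, 2 of 8 were higher (CD44 and L1CAM) and 2 lower (ALDH1A1 and ALDH1A3), against 9.34% and 8.63%. No marker was called in the same direction in both COV318 populations, where 1.06% of all genes were higher in both and 0.693% lower in both. None was called in the same direction in all 4 populations, as 0.107% (higher) and 0.0915% (lower) of all genes were. The median log2FC of the markers with enough counts was 1.92 in OVCAR3-CTR, 0.51 in OVCAR3-MGPKO, 0.85 in COV318-CTR and 0.03 in COV318-MGP, beside 0.08, 0.04, -0.05 and -0.00 over all genes tested.

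**Figure D1:**
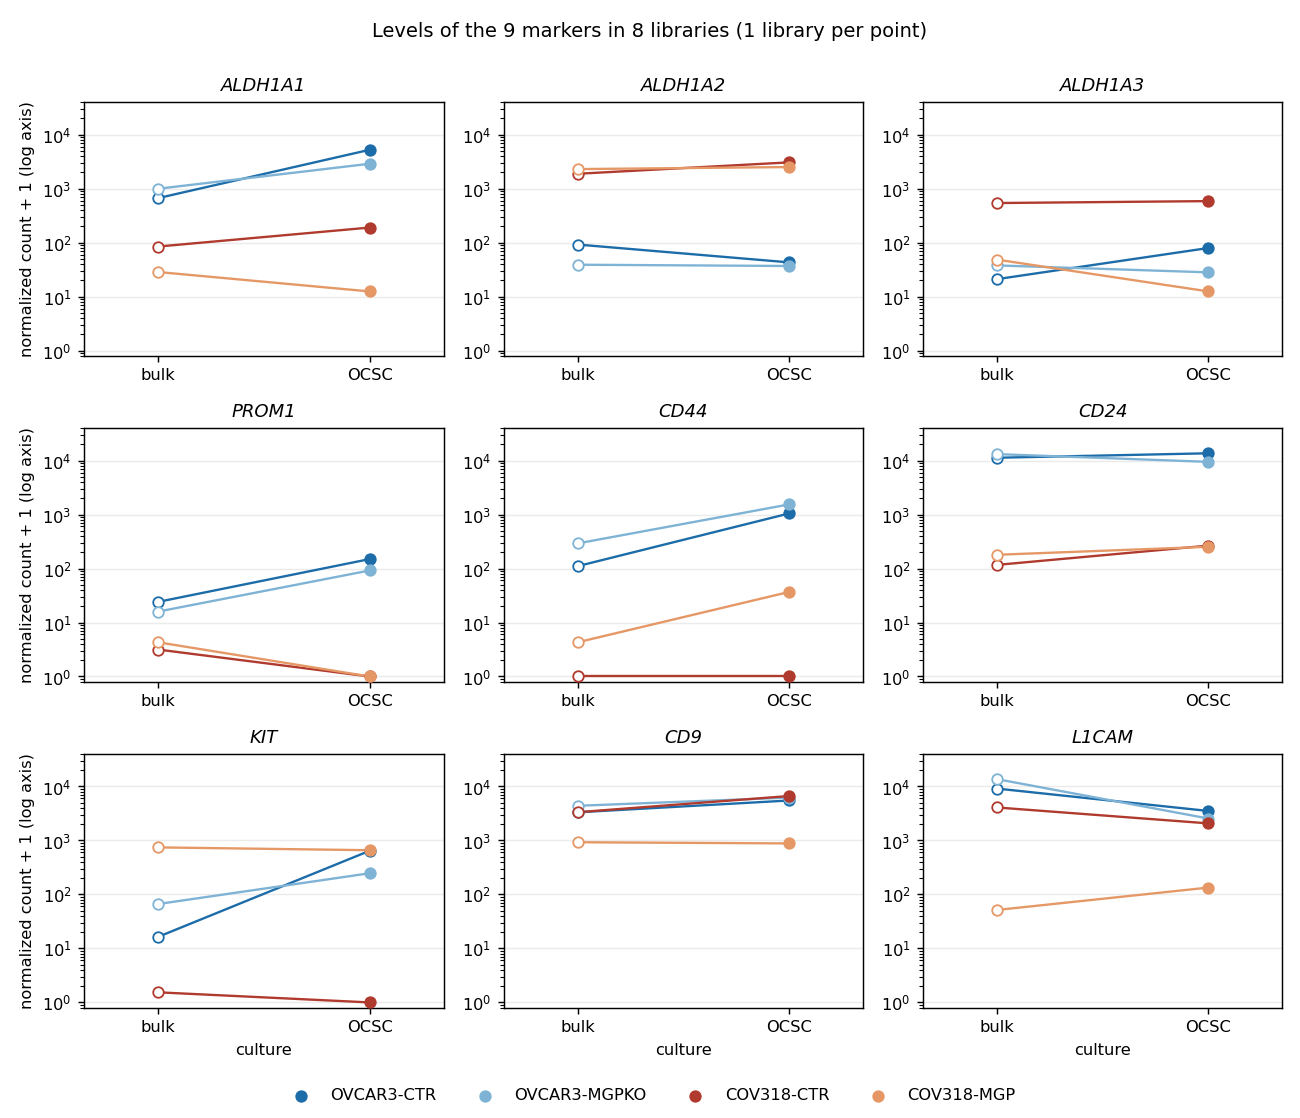
Normalized count plus 1 (log axis) of each of the 9 markers in bulk (open points) and OCSC (filled points), with 1 point per library and a line joining the cultures of a population. The lines of PROM1, CD44 and KIT climb in both OVCAR3 populations (blue), while CD44 in COV318-CTR (dark red) stays at a count of 0.

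**Figure D2:**
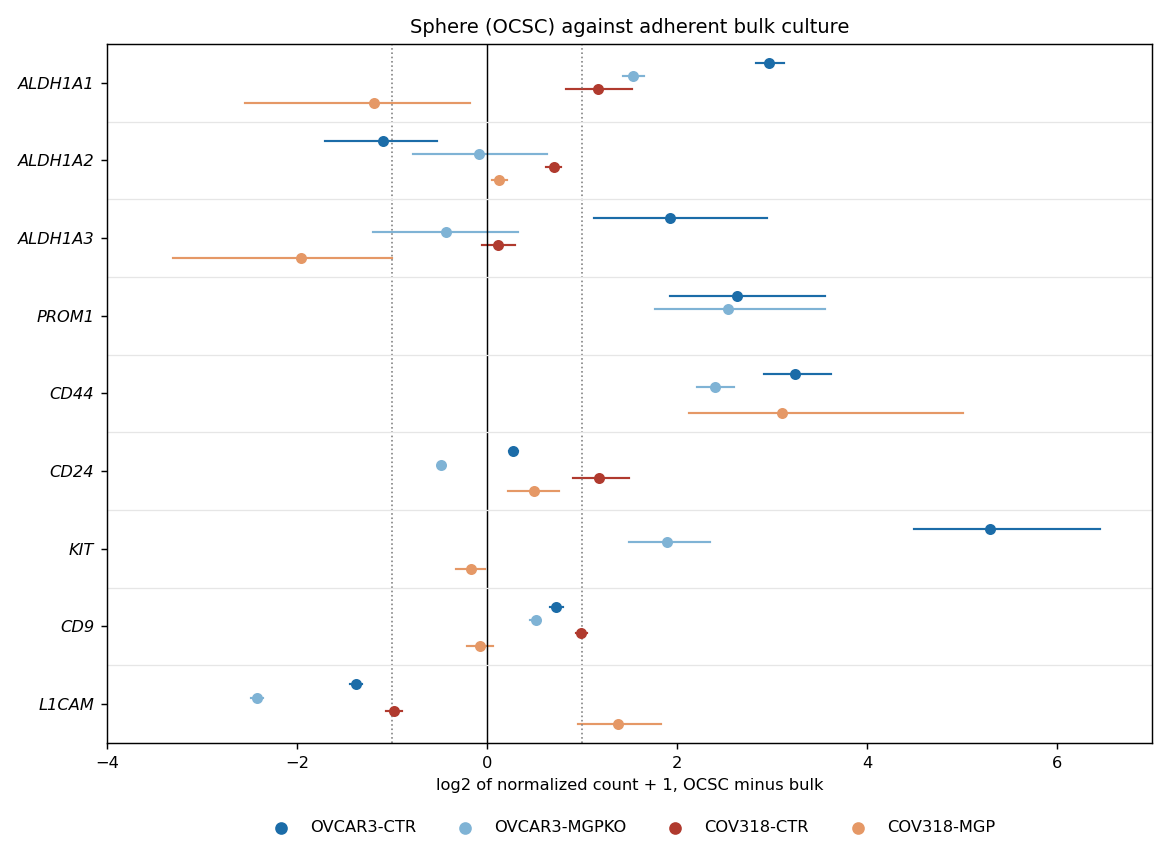
OCSC minus bulk on the log2(normalized count + 1) scale for each marker and population, for pairs with at least 10 counts in 1 library. Bars are 95% exact intervals for counting error only, and dotted lines mark the call at a log2FC of 1; KIT in OVCAR3-CTR lies farthest to the right, at 5.29.

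Because each condition has 1 library, a difference within a pair has an interval for counting error (Clopper-Pearson, 95%) but no replicate test. Treating the 2 populations of a line as its replicates, edgeR's quasi-likelihood test across 15586 genes called 35 genes higher (0.225%) and 7 lower (0.0449%) in OVCAR3 OCSC, and none of the 9 markers. Their log2FC in that test was 3.42 ± 0.82 for KIT, 2.80 ± 0.42 for CD44, 2.62 ± 0.60 for PROM1, 2.23 ± 0.54 for ALDH1A1 and -1.92 ± 0.53 for L1CAM (approximate SE, n = 2 populations). Here and below, this SE is the log2FC size divided by the square root of the F statistic of the edgeR test. It uses a spread moderated over genes and fitted on all 8 libraries, so it is not the spread of the 2 OVCAR3 shifts. The edgeR adjusted p-values were 0.0714 for CD44, 0.166 for KIT, 0.167 for ALDH1A1, 0.169 for PROM1 and 0.215 for L1CAM, while all 5 had an unadjusted p below 0.05, as did 11.7% of all genes. The DESeq2 Wald test on the same design, an alternative, called all 5 (adjusted p = 3.96e-07 for CD44, 1.87e-04 for KIT, 0.00389 for ALDH1A1, 0.0159 for L1CAM and 0.0446 for PROM1). These were among 589 genes that DESeq2 called in OVCAR3 spheres, against 42 by edgeR. Without the COV318-MGP libraries, which enter the edgeR fit through the shared spread, edgeR called CD44 (adjusted p = 0.0119), ALDH1A1 (0.0315) and L1CAM (0.0315), among 351 genes. In COV318, edgeR called 0 of 15586 genes, with 843 at an unadjusted p below 0.05, and DESeq2 called 68. Without the COV318-MGP libraries edgeR called 105 genes in COV318, and none of the markers, but there the COV318 shift rests on 1 pair of libraries and the spread comes from OVCAR3 alone. Populations of a line share their origin, so these p-values may be too small.

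The ALDH1A genes divided the lines between them, with ALDH1A1 prevailing in OVCAR3 and ALDH1A2 in COV318. ALDH1A1 (ENSG00000165092.13, chr9:72900671-73080442, minus strand, hg38) had 666 normalized counts in OVCAR3-CTR bulk and 5225 in OCSC, and 993 and 2883 in OVCAR3-MGPKO bulk and OCSC. In COV318 it had 83.5 and 189 in CTR bulk and OCSC, and 27.5 and 11.5 in MGP bulk and OCSC. Every OVCAR3 library was above every COV318 library, and both OVCAR3 OCSC libraries were above both OVCAR3 bulk libraries. The share of all genes whose libraries separate in such ways was not counted, for ALDH1A1 or for the markers below. ALDH1A1 was 7.84-fold higher in OVCAR3-CTR OCSC (log2FC 2.97, counting interval 2.83 to 3.12) and 2.9-fold higher in OVCAR3-MGPKO OCSC (1.54, 1.43 to 1.65). It was 2.26-fold higher in COV318-CTR OCSC (1.17, 0.83 to 1.52) and 2.4-fold lower in COV318-MGP OCSC, where it rested on 50 and 8 counts (-1.19, -2.55 to -0.18). In these bulk preparations, a larger share of ALDH1A1-expressing cells and more RNA per cell cannot be told apart.

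ALDH1A2 (ENSG00000128918.15, chr15:57953424-58497866, minus strand), the main retinoic acid-producing enzyme of the early embryo, had the opposite layout. Its normalized count was 91 and 42 in OVCAR3-CTR bulk and OCSC and 37.9 and 35.9 in OVCAR3-MGPKO, but 1879.8 and 3058 in COV318-CTR and 2295 and 2505 in COV318-MGP. All 4 COV318 libraries were above all 4 OVCAR3 libraries, a layout whose share among all genes was not counted. ALDH1A2 was 2.17-fold lower in OVCAR3-CTR OCSC (log2FC -1.10, -1.71 to -0.53) and 1.63-fold higher in COV318-CTR OCSC (0.70, 0.62 to 0.78). The value of 0.13 in COV318-MGP turned to -0.08 when counts were scaled to the library total. Exons of the antisense gene ALDH1A2-AS1 and of AQP9 overlap ALDH1A2 on the other strand, and whether counting used strand is not stated, so reads of these genes cannot be told apart from its own.

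ALDH1A3 (ENSG00000184254.17, chr15:100877714-100916626, plus strand), the third retinal dehydrogenase, was highest in COV318-CTR. It had 539 and 585 normalized counts in COV318-CTR bulk and OCSC, against 20.1 and 78.4 in OVCAR3-CTR, 36.8 and 27.1 in OVCAR3-MGPKO, and 47.3 and 11.5 in COV318-MGP. The 6 libraries outside COV318-CTR lay at 78.4 normalized counts or below. ALDH1A3 was 3.91-fold higher in OVCAR3-CTR OCSC on 84 against 13 counts (log2FC 1.92, 1.12 to 2.94) and 4.13-fold lower in COV318-MGP OCSC on 8 against 86 counts (-1.96, with a counting interval that excluded no change). In OVCAR3-MGPKO and COV318-CTR the counting interval included no change. Exons of ALDH1A3-AS1 overlap it on the other strand, and those of a long non-coding RNA without a symbol overlap it on the same strand.

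Levels per kilobase of exon divide by the union of all annotated exons of a gene, which can exceed the length of the RNA present. The union was 2840 bases for ALDH1A1 and 8127 for ALDH1A2, so comparisons between genes are approximate. On this scale, ALDH1A1 made up 94% to 99.1% of the summed ALDH1A level in the 4 OVCAR3 libraries. ALDH1A2 made up 63.9% and 68.1% of it in COV318-CTR bulk and OCSC, and 93.8% and 98% in COV318-MGP. In OVCAR3-CTR the ALDH1A group went from 8.13% of the level of all 19 measured ALDH genes in bulk to 34.9% in OCSC, and in OVCAR3-MGPKO from 11.9% to 24.6%. In the COV318 libraries that share was 15.4% and 21.4% in CTR bulk and OCSC and 7.38% and 8.82% in MGP. ALDH18A1, which makes a proline precursor in mitochondria, led the 19 genes in both OVCAR3 bulk libraries, and ALDH1A1 led them in both OVCAR3 OCSC libraries. These shares are descriptions of single libraries, and no test was made of them.

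**Figure D3:**
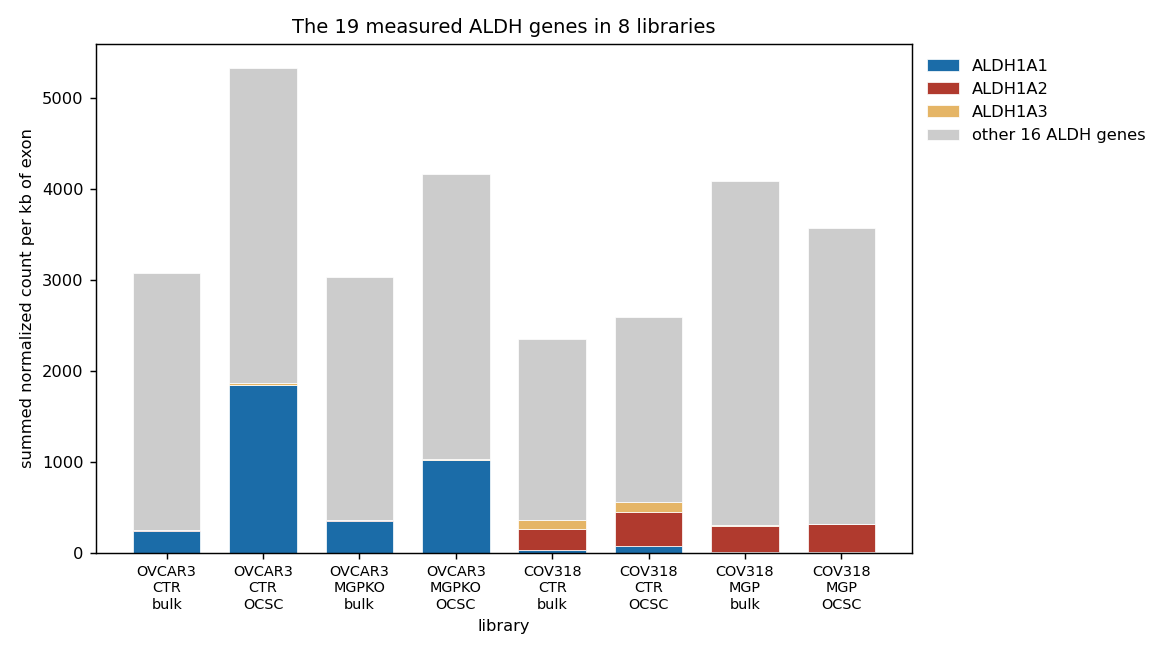
Summed normalized count per kilobase of exon over the 19 measured ALDH genes in each of the 8 libraries, stacked by gene. ALDH1A1 (blue) reaches 1839.6 and 1015.3 in the OVCAR3 OCSC libraries, and ALDH1A2 (red) is the main ALDH1A gene in the 4 COV318 libraries.

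The other 16 ALDH genes, mostly mitochondrial and cytosolic enzymes of amino acid, lipid and aldehyde metabolism, were described in the same way. Of the 15 with enough counts, 4 were higher and 1 lower in OVCAR3-CTR OCSC, and 1 higher and 1 lower in OVCAR3-MGPKO OCSC. The shares of all genes were 13.9% higher and 11.4% lower in OVCAR3-CTR, and 7.77% and 8.96% in OVCAR3-MGPKO. The median log2FC of the 15 was 0.53 and 0.58, beside 0.08 and 0.04 for all genes. In COV318-CTR, 2 of 13 were higher and 1 lower, against 9.4% and 9.76% of all genes. In COV318-MGP 0 of 14 were called, against 9.34% higher and 8.63% lower. edgeR called none of the 15 tested in either line, and 5 had an unadjusted p below 0.05 in OVCAR3.

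The retinoid pathway around the ALDH1A enzymes held calls in both directions in OVCAR3. Of 18 genes for retinol and retinal enzymes, binding proteins and receptors, 14 were tested by edgeR in OVCAR3, and 1 was called higher and 1 lower in OCSC. The one higher was RBP4, which carries retinol in blood, with 61 and 2395 counts in OVCAR3-CTR bulk and OCSC and 6 and 1016 in OVCAR3-MGPKO (log2FC 5.47 ± 0.63, edgeR adjusted p = 0.0446). The one lower was DHRS3, which reduces retinal back to retinol, with 1085 and 422 counts in OVCAR3-CTR and 542 and 145 in OVCAR3-MGPKO (-2.21 ± 0.30, adjusted p = 0.0469). Both are named because the count is small, after their values had been seen. The median of the 14 was 0.34, beside 0.01 for all genes tested. In COV318, edgeR called 0 of 14, with 4 at an unadjusted p below 0.05.

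PROM1 and CD44 were higher in the spheres of both OVCAR3 populations and had at most 4 counts in a COV318-CTR library. PROM1 (ENSG00000007062.12, chr4:15963076-16084378, minus strand) had 23.1 and 148 normalized counts in OVCAR3-CTR bulk and OCSC, and 14.9 and 90.9 in OVCAR3-MGPKO. Its raw counts in COV318 were 4 and 0 in CTR bulk and OCSC and 6 and 0 in MGP, so it could be compared in OVCAR3 alone. PROM1 was 6.42-fold higher in OVCAR3-CTR OCSC (log2FC 2.63, 1.92 to 3.55) and 6.09-fold higher in OVCAR3-MGPKO OCSC (2.53, 1.77 to 3.56), with overlapping counting intervals. Even at its highest, the PROM1 level was 19.9 normalized counts per kilobase, the 34.8th percentile of 17042 genes with a length. Its exons overlap FGFBP2 on the same strand.

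CD44 (ENSG00000026508.21, chr11:35138882-35232402, plus strand) had 110 and 1045 normalized counts in OVCAR3-CTR bulk and OCSC and 291 and 1537 in OVCAR3-MGPKO. It had 0 counts in both COV318-CTR libraries, and 6 and 25 counts in COV318-MGP bulk and OCSC. Both OVCAR3 OCSC libraries were above both bulk libraries, by 9.54-fold in CTR (log2FC 3.24, 2.91 to 3.62) and 5.29-fold in MGPKO (2.40, 2.21 to 2.60). In COV318-MGP it was 10.8-fold higher in OCSC on these few counts (3.10, 2.12 to 5.01). With 0 counts in COV318-CTR, the depth allows up to 3 counts there, which is 0.0802 CPM in bulk and 0.244 CPM in OCSC. The antisense genes CD44-DT and CD44-AS1 overlap its exons.

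Genes that make, cut or transmit the hyaluronan signal of CD44 were described beside it. Of 17 listed synthases, hyaluronidases, ERM linkers, sheddases and splicing factors, 15 were tested by edgeR in OVCAR3 and 0 called, with 2 at an unadjusted p below 0.05 and a median log2FC of 0.29. Past the call by fold were 3 of 15 higher and 1 lower in OVCAR3-CTR OCSC, against 13.9% and 11.4% of all genes. In OVCAR3-MGPKO OCSC, 1 was higher and 1 lower, against 7.77% and 8.96%. In COV318, edgeR called 0 of 15, with 2 at an unadjusted p below 0.05.

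CD24 (ENSG00000272398.6, chr6:106969831-106975627, minus strand) was abundant in bulk and spheres of OVCAR3. It had 11258.0 and 13617.3 normalized counts in OVCAR3-CTR bulk and OCSC and 13144.2 and 9450.0 in OVCAR3-MGPKO, against 116 and 264 in COV318-CTR and 179 and 252 in COV318-MGP. The OVCAR3 and COV318 libraries did not overlap, and how many of all genes separate the lines like this was not counted. Within OVCAR3 the cultures differed in opposite directions, by log2FC 0.27 and -0.48. CD24 was 2.28-fold higher in COV318-CTR OCSC (log2FC 1.18, 0.90 to 1.49) and 1.41-fold higher in COV318-MGP OCSC (0.49, 0.22 to 0.76). Per kilobase it led the 9 markers in all 4 OVCAR3 libraries, at the 99th percentile of genes or above. The annotation holds the processed pseudogenes CD24P1, CD24P2, CD24P4 and CD24P5, which can take or lose reads of CD24, so its counts are uncertain.

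CD44 and CD24 are often read together, as a ratio of one to the other. CD44 differed by log2FC 3.24 and 2.40 between the cultures of OVCAR3, while CD24 differed by 0.27 and -0.48. The CD44 level remained below the CD24 level per kilobase in the OVCAR3 OCSC libraries, at 105 against 4398.4 in CTR and 154 against 3052.2 in MGPKO. The exon unions used were 9992 bases for CD44 and 3096 for CD24. In normalized counts, CD44 was also lower, at 1045 against 13617.3 in CTR and 1537 against 9450 in MGPKO.

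KIT (ENSG00000157404.17, chr4:54657267-54740783, plus strand) had the largest difference between bulk and spheres of the 9 markers, in OVCAR3-CTR. It had 15.4 and 642 normalized counts in OVCAR3-CTR bulk and OCSC and 65.5 and 246 in OVCAR3-MGPKO. In COV318-CTR its counts were 1 and 0, whereas in COV318-MGP it had 743 and 658 normalized counts in bulk and OCSC. KIT was 41.6-fold higher in OVCAR3-CTR OCSC on 688 against 10 counts (log2FC 5.29, 4.49 to 6.45) and 3.75-fold higher in OVCAR3-MGPKO OCSC (1.89, 1.49 to 2.34). In COV318-MGP, KIT was 1.13-fold lower in OCSC (-0.17, -0.33 to -0.02), so that adherent cells and spheres were both high.

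Of 8 genes of the KIT pathway, edgeR tested 7 in OVCAR3 and called KITLG higher. KITLG encodes stem cell factor, the KIT ligand, and had 22 and 247 counts in OVCAR3-CTR bulk and OCSC and 138 and 966 in OVCAR3-MGPKO (log2FC 2.55 ± 0.34, edgeR adjusted p = 0.0469). Receptor and ligand were thus both more abundant in OVCAR3 spheres, the ligand past the test and the receptor not. In COV318, KITLG had a log2FC of -0.26 ± 0.31 (adjusted p = 0.955), and 0 of 7 pathway genes were called. By fold, 3 of 7 were higher and 0 lower in OVCAR3-CTR OCSC, against 13.9% and 11.4% of all genes. In OVCAR3-MGPKO OCSC, 2 were higher and 0 lower, against 7.77% and 8.96%.

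CD9 (ENSG00000010278.15, chr12:6199715-6238271, plus strand) was the only one of the 9 markers not called in any comparison of OCSC with bulk. It had 3320 and 5495 normalized counts in OVCAR3-CTR bulk and OCSC, 4385 and 6225 in OVCAR3-MGPKO, 3336 and 6647 in COV318-CTR, and 926 and 880.4 in COV318-MGP. Outside COV318-MGP, every OCSC library was above every bulk library, with log2FC of 0.73, 0.51 and 0.99, none of them past 1. The value of 0.99 in COV318-CTR was 1.13 when counts were scaled to the library total. In COV318-MGP the log2FC was -0.07 and its interval included no change. Over OVCAR3, edgeR gave 0.60 ± 0.31 (adjusted p = 0.524).

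Of 15 tetraspanins and CD9 partners, 12 were in the table and tested, and edgeR called TSPAN7 in OVCAR3. TSPAN7, a tetraspanin best known from neurons, had 137 and 2090 counts in OVCAR3-CTR bulk and OCSC and 96 and 1973 in OVCAR3-MGPKO (log2FC 3.56 ± 0.39, edgeR adjusted p = 0.029), and is named after its values had been seen. By fold, 6 of 12 were higher in OVCAR3-CTR OCSC and 3 of 12 in OVCAR3-MGPKO OCSC, with 0 lower in either, and their median log2FC was 0.96 and 0.46. In COV318-CTR, 1 of 12 was higher and 3 lower, and in COV318-MGP 0 of 11 were higher and 1 lower. The shares of all genes were 13.9% higher and 11.4% lower in OVCAR3-CTR, and 7.77% and 8.96% in OVCAR3-MGPKO. They were 9.4% and 9.76% in COV318-CTR, and 9.34% and 8.63% in COV318-MGP.

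L1CAM (ENSG00000198910.14, chrX:153861514-153886173, minus strand) was lower in the spheres of 3 of the 4 populations. It had 9129 and 3512 normalized counts in OVCAR3-CTR bulk and OCSC, 13637.2 and 2546 in OVCAR3-MGPKO, 4078 and 2069 in COV318-CTR, and 50.6 and 133 in COV318-MGP. Within each of OVCAR3-CTR, OVCAR3-MGPKO and COV318-CTR the OCSC library was lower, by 2.6-fold (log2FC -1.38, -1.44 to -1.32), 5.36-fold (-2.42, -2.48 to -2.36) and 1.97-fold (-0.98, -1.06 to -0.90). In COV318-MGP it was 2.63-fold higher in OCSC, on 92 and 93 raw counts (1.38, 0.96 to 1.83). The antisense gene L1CAM-AS1 overlaps its exons, as does a protein-coding gene without a symbol on the same strand.

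Of 11 genes of the L1 family and its partners, 8 were tested by edgeR in OVCAR3 and 0 called, with 4 at an unadjusted p below 0.05 and a median log2FC of 0.24. By fold, 3 of 8 were higher and 1 lower in OVCAR3-CTR OCSC, and 2 higher and 1 lower in OVCAR3-MGPKO OCSC. In COV318-CTR, 1 of 7 was higher and 2 lower. Of 12 further surface proteins used to mark ovarian cancer stem cells, such as EPCAM, LGR5 and ROR1, 5 of 10 were higher and 0 lower in OVCAR3-CTR OCSC, 5 higher and 1 lower in OVCAR3-MGPKO OCSC, 2 higher and 2 lower of 11 in COV318-CTR, and 1 higher and 1 lower of 10 in COV318-MGP. The median log2FC of these surface proteins was 0.79, 0.88, 0.21 and -0.28 in that order, and edgeR called 0 of 11 tested in either line. For both lists, the shares of all genes in that order were 13.9%, 7.77%, 9.4% and 9.34% higher. The shares lower were 11.4%, 8.96%, 9.76% and 8.63%. LGR5 is named with its counts as the best known of the further surface proteins, after its values had been seen: 38 and 1612 in OVCAR3-CTR bulk and OCSC, 185 and 3324 in OVCAR3-MGPKO, 631 and 1287 in COV318-CTR, and 891 and 106 in COV318-MGP.

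Whether the lines differed in the shift from bulk to spheres was tested in the same edgeR fit. Of 15586 genes, 0 were called with a larger and 2 (0.0128%) with a smaller log2FC in COV318, and none of these was a marker. The difference, COV318 minus OVCAR3, was -1.94 ± 0.79 for ALDH1A1 (edgeR adjusted p = 0.574), 2.05 ± 0.77 for L1CAM (0.544) and 1.06 ± 0.48 for ALDH1A2 (0.614). Without the COV318-MGP libraries the difference was -1.04 for ALDH1A1 (adjusted p = 0.612), 0.95 for L1CAM (0.579) and 1.36 for ALDH1A2 (0.403), so the sizes for ALDH1A1 and L1CAM depend on those libraries. For CD44, PROM1 and KIT, fitted differences rest on libraries at 0 and are not given. For the mean of the lines edgeR called 0 genes, with 1500 at an unadjusted p below 0.05, and DESeq2 called 392. Without the COV318-MGP libraries, edgeR called ALDH1A1 (log2FC 1.71, adjusted p = 0.0482) and L1CAM (-1.44, adjusted p = 0.0476) in the mean of the lines, with the COV318 shift again taken from 1 pair of libraries.

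In OVCAR3, no marker passed the test between the knockout and control populations, and the calls by fold differed between cultures. In bulk, 2 of 9 were higher and 1 lower in MGPKO, against 13.1% and 8% of all genes, and in OCSC 0 were higher and 2 lower, against 7.53% and 4.94%. KIT was 4.25-fold higher in MGPKO bulk on 57 against 10 counts (log2FC 2.02, 1.10 to 3.22) and 2.61-fold lower in MGPKO OCSC (-1.38, -1.59 to -1.18). CD44 was 2.66-fold higher in MGPKO bulk (1.40, 1.02 to 1.81) and 1.47-fold higher in MGPKO OCSC (0.56, 0.45 to 0.67), above the control in both cultures. ALDH1A1 was 1.49-fold higher in MGPKO bulk (0.57) and 1.81-fold lower in MGPKO OCSC (-0.86). The remaining calls were ALDH1A2 in bulk (-1.24, -1.92 to -0.62) and ALDH1A3 in OCSC (-1.50, -2.18 to -0.92). Over both cultures, edgeR called 5 genes higher (0.0321%) and 1 lower (0.00642%) in MGPKO and none of the 9 markers, of which CD44 had the smallest p (0.98 ± 0.40, adjusted p = 0.73). The bulk and OCSC libraries of a population stand in as its replicates there, so that test compares 2 populations and does not replicate the knockout. The OVCAR3-CTR libraries enter both the culture and the knockout comparisons, so the smaller sphere shift of KIT in MGPKO and its MGPKO differences rest on the same 4 values.

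**Figure D4:**
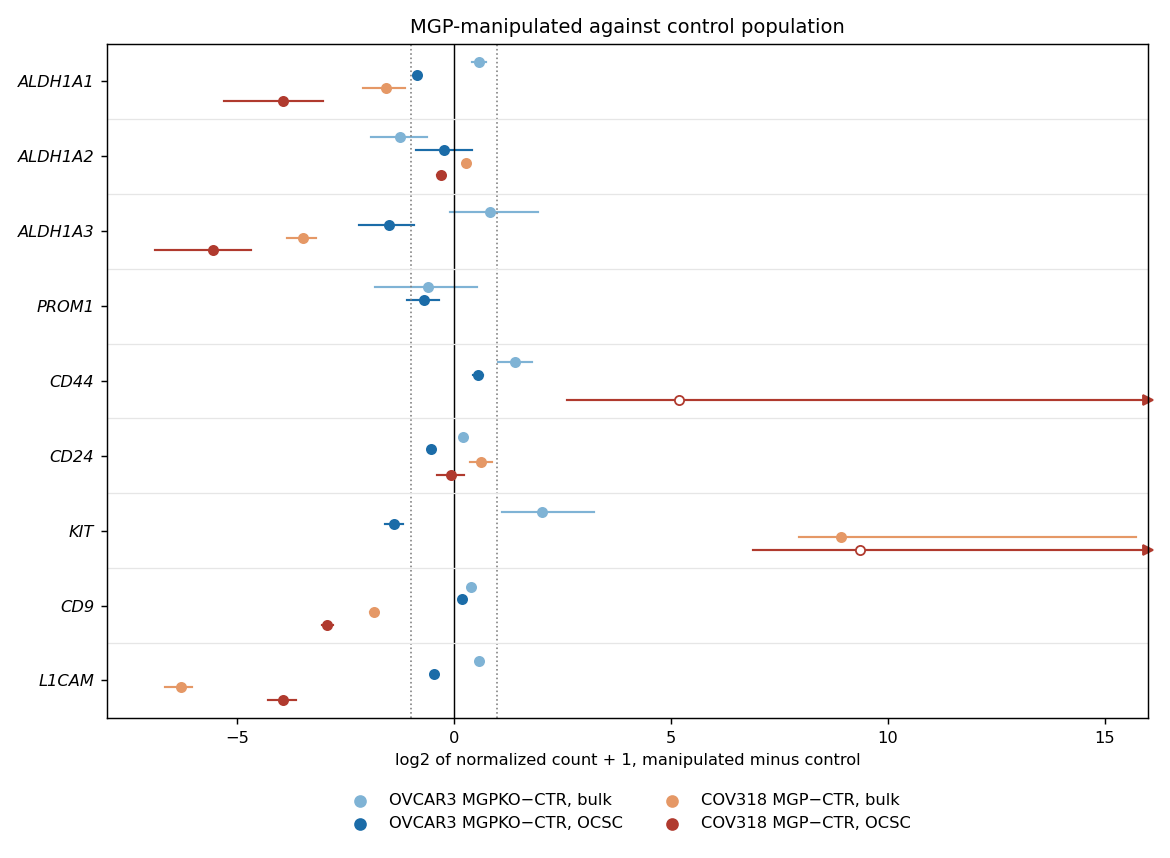
Difference between the MGP-manipulated and the control population on the log2(normalized count + 1) scale for each marker, in bulk and OCSC of each line. Bars are 95% exact intervals for counting error only, dotted lines mark the call at a log2FC of 1, and open points with arrows had a control count of 0; the OVCAR3 points lie between -1.50 and 2.02, and those of KIT in COV318 lie farthest to the right.

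In COV318, most markers differed between the MGP and control populations, in a comparison in which 15.9% of all genes were called higher and 17.6% lower by edgeR. KIT and CD44 rose and L1CAM, ALDH1A3, ALDH1A1 and CD9 fell, so that 6 of 9 markers passed, with adjusted p from 8.25e-04 to 0.0157. The bulk and OCSC libraries of 1 population stand in as its replicates in this test. It thus compares 1 transduced population with 1 control population, and these p-values and shares are not replicated evidence on MGP. L1CAM was 80.6-fold lower in COV318-MGP bulk (log2FC -6.30, -6.65 to -6.04) and 15.5-fold lower in OCSC (-3.95, -4.28 to -3.65). KIT had 1351 counts in MGP bulk against 1 in CTR bulk, a 1379.5-fold ratio with a log2 counting interval of 7.95 to 15.73. Its log2FC of 8.92 depends on the pseudocount and was 7.08 with a pseudocount of 5. KIT was at least 148-fold higher in OCSC against the floor of 3 counts in the control library. CD44 was at least 8.03-fold higher in OCSC on 25 against 0 counts. ALDH1A3 was 11.4-fold lower in bulk (-3.48) and 51.1-fold lower in OCSC (-5.56), and ALDH1A1 3.04-fold (-1.57) and 16.5-fold (-3.93) lower.

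CD9 was 3.6-fold lower in COV318-MGP bulk (log2FC -1.85) and 7.55-fold lower in OCSC (-2.92). ALDH1A2 and CD24, in contrast, differed by at most 1.54-fold between the populations in either culture. By fold, 1 of 7 markers was higher and 4 lower in bulk, against 24.4% and 26.1% of all genes, and 2 of 8 were higher and 4 lower in OCSC, against 26.6% and 26.4%. The epithelial marker list differed in the same comparison, with 12 of 13 lower in bulk, and 11 lower and 1 higher in OCSC. Of the mesothelium markers, 4 of 4 tested were lower by edgeR, as were 2 of 2 endothelium markers, and 1 of 4 fibroblast and 1 of 2 leukocyte markers were higher. By fold, 2 of 6 fibroblast markers were higher and 2 lower in bulk. In OCSC 4 of 4 were higher, against small control counts such as 7 for COL1A1 and 8 for ACTA2. The part of these lists in the marker differences was not tested. With 1 transduced population on each side, population and MGP cannot be told apart.

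The pathway lists were counted in the same comparison of COV318-MGP with COV318-CTR. Of the retinoid pathway, 3 of 14 genes were called higher and 5 lower by edgeR, the latter including the retinoic acid binding proteins CRABP1 and CRABP2. Of the hyaluronan and CD44 partners, 1 of 15 was higher and 7 lower, among them ESRP1 (log2FC -6.80 ± 0.63) and ESRP2 (-6.24 ± 0.46), splicing regulators of epithelial CD44 isoforms. Of the L1 partners, 2 of 8 were higher and 5 lower, of the tetraspanins 1 of 12 was higher and 3 lower, and of the other 16 ALDH genes 5 of 15 were higher and 1 lower. Of the KIT pathway, 2 of 7 were higher, KITLG (1.65 ± 0.32, edgeR adjusted p = 0.00672) and MITF (2.00 ± 0.50, 0.0189), and 0 lower. The genes named in these lists were chosen after their values had been seen, and the same background of 15.9% and 17.6% applies.

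Per kilobase of exon, the order of the markers differed by line. In OVCAR3-CTR bulk it ran from CD24 (3636.3) through L1CAM (1255.8), CD9 (570.0) and ALDH1A1 (235) to levels of 11.2 and below for ALDH1A2, CD44, ALDH1A3, PROM1 and KIT. In OVCAR3-CTR OCSC, ALDH1A1 (1839.6) stood second behind CD24 (4398.4), and KIT had moved from ninth to sixth place at 56.7. In COV318-CTR, CD9 led both libraries (572 and 1140.4), followed by L1CAM (561) and ALDH1A2 (231) in bulk and by ALDH1A2 (376) and L1CAM (285) in OCSC. In COV318-MGP, ALDH1A2 led both (282 and 308). Neighbours such as CD9 and L1CAM in COV318-CTR bulk, or ALDH1A2 and CD44 in OVCAR3-CTR bulk (11.2 and 11), were close, and with 1 library each their order has no replicate behind it. The order also depends on the union exon lengths used.

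For each marker, the 2 genes whose pattern over the 8 libraries lay closest were named, by the root mean square (RMS) difference of gene-centred log2(normalized count + 1) among 15302 genes. For ALDH1A1 these were S100A4 (RMS 0.52) and P2RY2 (0.59), for PROM1 FAM83E (0.66) and STX19 (0.69), for CD44 ABLIM3 (1.02) and EYA2 (1.11), and for KIT LIN7A (0.85) and PLXNA2 (1.14). Those of L1CAM were THBS1 (0.57) and EPHA2 (0.58), those of CD9 ICAM3 (0.19) and FAAH (0.25), and those of CD24 MYO7A (0.25) and BAGE5 (0.34). Those of ALDH1A2 were GNAS-AS1 (0.39) and LINC01980 (0.41), and those of ALDH1A3 HYDIN2 (0.41) and ZNF137P (0.49). None of the 9 markers was among the closest genes of another. LIN7A, which scaffolds membrane proteins at cell junctions, had counts of 8 and 504 in OVCAR3-CTR bulk and OCSC, 0 and 0 in COV318-CTR, and 1327 and 332 in COV318-MGP. In OVCAR3-MGPKO it had 17 and 832, where KIT had 57 and 281. LIN7A was thus higher in MGPKO than in CTR OCSC, whereas KIT was lower. These distances are descriptions over 8 libraries of 4 populations, which are not independent samples.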

How the data were processed

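RNA-seq libraries from 4 populations of 2 cell lines, each in 2 cultures, were analysed. Per the labels and methods, the authors prepared TruSeq libraries for paired-end sequencing, mapped the reads with STAR (2.7.5c in the processing notes) to the hg38 genome and deposited raw counts per gene. The annotation, the kit of these libraries and the strand setting are not given in the sources used here. The authors also deposited a normalized signal, the count divided by the DESeq2 median-of-ratios size factor. Size factors recomputed over 15518 genes gave the same values to within a relative difference of 4.9e-10.

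Each condition has 1 library, so pairs were compared by log2(normalized count + 1), with a pseudocount of 1, a call at 1 on the log2 scale, at least 10 counts in 1 library, and Clopper-Pearson 95% intervals, which cover counting error only. The edgeR 4.0.16 quasi-likelihood test (filterByExpr, 15586 genes, Benjamini-Hochberg adjustment, threshold 0.05) had a term for each population and a culture term per line. DESeq2 1.42.0, TMM, CPM and the settings given at the end were alternatives. On simulated counts for the mean of the lines over 15593 genes, edgeR recovered 90.1% of the changed genes tested, at a log2 size of 2, with 3 false calls. The simulated shift was the same in all 4 populations, so the recovery does not apply to the tests within a line or to populations that differ in their shift. Levels per kilobase used the union of GENCODE 44 exons over all transcripts of a gene, and promoters came from RefSeq. R 4.3.3 and Python 3.11.15 were used.

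The 9 markers, all gene lists and the comparisons were chosen with earlier results of these data known. The rule for named genes covered the markers, MGP, list genes past the edgeR test in the mean of the lines (none passed) and the 2 most alike genes per marker. Other list genes named in the text were picked outside this rule, after their values had been seen. The 8 promoter motifs, and the criteria for the results singled out after the report, were settled after values had been seen. Counts of calls in either direction were merged when the alternatives were tabulated.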

Additional observations from a re-analysis of the deposited data

Results flagged for a closer look

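These results had opposite directions in comparisons of the same kind, with at least 10 counts in each pair. The criterion was revised once after a first version had also singled out PROM1 and CD9. ALDH1A1 was higher in OCSC of COV318-CTR (log2FC 1.17) and lower in OCSC of COV318-MGP (-1.19), the latter on 50 and 8 counts. L1CAM was lower in OCSC of COV318-CTR (-0.98) and higher in OCSC of COV318-MGP (1.38). With 1 library per condition, neither difference between the COV318 populations was tested. Both rest on the COV318-MGP libraries, in which 6 of 13 epithelial markers were above the floor, against 13 of 13 in COV318-CTR, and the part of that in these results was not tested. KIT in OVCAR3-MGPKO was above OVCAR3-CTR in bulk (2.02) and below it in OCSC (-1.38), on 57 against 10 and 281 against 688 counts, and that difference was not tested either.

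ALDH1A2 was lower in OCSC of both OVCAR3 populations (log2FC -1.10 and -0.08) and higher in OCSC of both COV318 populations (0.70 and 0.13). The edgeR test of the difference between the lines gave 1.06 ± 0.48 with an adjusted p of 0.614, so it did not pass. The counting interval of -0.08 included no change, and 0.13 became 0.01 with TMM factors and -0.08 with counts scaled to the library total.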

How the results depend on the processing

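Of 134 recomputed counts of calls, 94 stayed within 1.5 times the reported count and 40 moved. Of 869 recomputed values of single markers, 824 were counted as unchanged, 28 moved in size and 17 newly passed the test. A fold counted as unchanged if it stayed within its counting interval. A tested value did so if its call at 0.05 stayed the same, whatever its size. No called value changed direction, but uncalled ones did. In COV318 spheres, the log2FC in the alternative tests ranged from -1.25 to 1.19 for ALDH1A1 and from -0.97 to 1.40 for L1CAM. With a call at a log2FC of 2, the markers called fell from 7 to 4 in OVCAR3-CTR, 5 to 3 in OVCAR3-MGPKO, 2 to 0 in COV318-CTR and 4 to 1 in COV318-MGP for OCSC against bulk, and from 3 to 1 and 2 to 0 for MGPKO against CTR in bulk and OCSC and 5 to 3 for COV318-MGP against CTR in bulk. For OVCAR3 spheres, edgeR's 42 genes became 26 with TMM, 170 without a filter, 589 with DESeq2 and 0 to 377 with a population left out (0 without OVCAR3-CTR, 8 without OVCAR3-MGPKO, 377 without COV318-CTR, 351 without COV318-MGP), and its 0 markers became 1 without a filter (CD44), 5 with DESeq2 and 0 to 3 with a population left out (3 without COV318-CTR or COV318-MGP: ALDH1A1, CD44, L1CAM). For COV318 spheres, 0 genes became 1 without a filter, 68 with DESeq2 and 1 to 105 with a population left out (105 without COV318-MGP), and 0 markers became 1 with DESeq2 (CD44). For the mean of the lines, 0 genes became 61 without a filter, 392 with DESeq2 and 7 and 308 without COV318-CTR and COV318-MGP, and 0 markers became 1 without a filter, 1 with DESeq2 (CD44 in each) and 2 without COV318-MGP. For the difference between the lines, 2 genes became 11 without a filter, 167 with DESeq2 and 0 to 24 with a population left out. For OVCAR3-MGPKO against CTR, 6 genes became 22 without a filter and 165 with DESeq2. The causes were not tested. In COV318 spheres, the DESeq2 call of CD44 rests on 6 and 25 counts in COV318-MGP, with 0 in both COV318-CTR libraries. The calls of CD44 in the mean of the lines include these same counts. The labels give no replicate numbers, so no replicate block was fitted, and the population terms of the reported fit pair the cultures of each population. With 2 residual degrees of freedom, and at most 3 counts as the floor, shifts in PROM1, CD44 and KIT in COV318-CTR were not detectable at this depth.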
